A study of Mus musculus with 20 samples.

Results

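The cornified envelope and late differentiation genes of the epidermis were examined across normal skin (NS), actinic keratosis (AK) and cutaneous squamous cell carcinoma (cSCC) of the mouse. Members were chosen by symbol, with earlier results of these data known, as the genes named Lce followed by a digit together with 19 further late differentiation genes. There were 40 members among the 22090 genes of the count table. They comprised 14 Lce1 genes, 6 Lce3 genes, Lce6a, and the 19 named genes from Lor and Flg to Krtdap.

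Keratinocytes that reach the top of the epidermis replace their plasma membrane with the cornified envelope, a sheet of crosslinked protein. Loricrin (Lor), involucrin (Ivl) and the late cornified envelope (Lce) proteins are envelope precursors, and transglutaminases join them by covalent bonds. Filaggrin (Flg) and some of its relatives, the fused-type S100 proteins, fill the keratohyalin granules of the granular layer. Many of the genes for these envelope and granule proteins lie side by side in the epidermal differentiation complex.

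RNA-seq was made from skin of female SKH-1 mice, a hairless strain, 7 months old as supplied. Of 8 mice, 4 were left without irradiation and 4 were exposed to ultraviolet light. The 8 NS came 1 from each mouse, and each irradiated mouse also gave lesions that were graded as AK (8 tissues) or cSCC (4 tissues). In the paper the AK were of a lower and a higher grade, which the labels do not give, so AK pools both. The labels do not say which NS were irradiated or which tissues share a mouse, so every tissue was treated as independent, although the AK and the cSCC each stand for only 4 mice, which can make p-values too small. Total counts ranged from 1624325 to 6295575 in NS, from 867219 to 14055206 in AK and from 775750 to 7095102 in cSCC. Levels are given as CPM, gene counts relative to the effective library size after TMM scaling, and 3 counts, the smallest level read as detected, corresponded to 0.225 to 3.78 CPM. In bulk tissue, fewer late keratinocytes and less RNA in each of them cannot be told apart.

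Of the 40 members, 30 lay on chromosome 3 between 92080271 and 93471980 (GRCm38), a span of 1391.7 kb, and 10 lay elsewhere. In order of position this cluster held Lor, Ivl, Lce6a, 13 Lce1 genes from Lce1a1 to Lce1l, the Lce3 genes Lce3a to Lce3f, Lce1m, and the S100 genes Crnn, Flg2, Flg, Hrnr, Rptn, Tchh and Tchhl1. The Lce3 block therefore sat between Lce1l and Lce1m. The promoters of Lce1a1, Lce1l and Lor, the members with the smallest adjusted p for cSCC vs. NS, are shown from 250 bases before to 50 bases after the start, as given by RefSeq on GRCm38.p6 and written 5′ to 3′ on the gene's strand. Capitals mark ATAAAA starting 20 to 40 bases before the start and TGANTCA, the letters bound by AP-1 factors.
Lce1a1, chr3:92648258-92648557, minus strand: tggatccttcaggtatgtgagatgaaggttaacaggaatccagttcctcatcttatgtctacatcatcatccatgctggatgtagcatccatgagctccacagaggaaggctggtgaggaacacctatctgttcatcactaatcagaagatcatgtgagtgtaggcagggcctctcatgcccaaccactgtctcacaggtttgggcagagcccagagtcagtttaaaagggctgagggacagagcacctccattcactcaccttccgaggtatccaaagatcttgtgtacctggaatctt
Lce1l, chr3:92851237-92851536, minus strand: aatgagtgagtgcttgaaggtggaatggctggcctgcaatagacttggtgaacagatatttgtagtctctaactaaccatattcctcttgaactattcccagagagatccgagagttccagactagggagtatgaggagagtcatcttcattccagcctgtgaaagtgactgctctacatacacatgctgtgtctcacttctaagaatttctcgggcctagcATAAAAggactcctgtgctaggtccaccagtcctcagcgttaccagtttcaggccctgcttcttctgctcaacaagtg
Lor, chr3:92083093-92083392, minus strand: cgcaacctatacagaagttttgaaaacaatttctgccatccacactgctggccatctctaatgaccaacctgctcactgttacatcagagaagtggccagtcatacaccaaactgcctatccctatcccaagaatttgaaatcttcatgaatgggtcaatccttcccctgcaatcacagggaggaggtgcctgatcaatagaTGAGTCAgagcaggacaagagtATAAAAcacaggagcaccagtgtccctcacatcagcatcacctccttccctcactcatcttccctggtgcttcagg

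The bases from 60 before to 10 after the start are shown for a pair of Lce1 and a pair of Lce3 genes, because Lce1 genes were called lower in cSCC and Lce3 genes were not. They were chosen after the levels were seen, and capitals mark ATAAAA.
Lce1c, chr3:92679187-92679256, plus strand: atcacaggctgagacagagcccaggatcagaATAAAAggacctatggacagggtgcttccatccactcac
Lce1m, chr3:93019052-93019121, minus strand: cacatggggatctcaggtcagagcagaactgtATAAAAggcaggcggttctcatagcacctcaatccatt
Lce3c, chr3:92944426-92944495, plus strand: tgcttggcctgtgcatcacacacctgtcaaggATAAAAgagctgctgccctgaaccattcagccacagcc
Lce3e, chr3:92967001-92967070, plus strand: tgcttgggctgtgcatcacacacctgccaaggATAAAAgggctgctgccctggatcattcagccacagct

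Promoters were found in the RefSeq table for 39 of the 40 members, 43 promoters in all, with none for Lce1f. On the gene's strand, ATAAAA began 20 to 40 bases before the start in 12 of 13 Lce1 and 5 of 6 Lce3 promoters, against 1.74% of 32851 promoters of all genes. Both subfamilies thus held this TATA-like run at the same place. TGANTCA, searched on both strands, was in 0 of 13 Lce1 and 0 of 6 Lce3 promoters but in 12 of the 24 promoters of other members, against 7.81% of all promoters. Alternative promoters of the same gene were counted separately, as for Dmkn, where overlapping promoters hold the same TGAGTCA. AACCNGTT, the letters bound by grainyhead-like factors, was searched on the gene's strand only. It was in 1 of the 43, that of Tgm5, and in 1.09% of all promoters. Over the same 300 bases, Lce1 promoters shared a median of 63.6% of bases with each other, Lce3 promoters 57.5%, and an Lce1 with an Lce3 promoter 48.8%. The Lce1m promoter, away from the other Lce1 genes, shared a median of 49.5% with them. These shares come from alignments with gaps. None was computed for unrelated promoters, so the share that unrelated sequences would reach is not known here.

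A pair of cSCC libraries stood apart. In cSCC replicate 21 the 10 heart muscle markers summed to 57844 CPM, against 82.7 to 165 CPM in the other cSCC and at most 80.7 CPM in NS and AK. In cSCC replicate 20 the 8 lung epithelium markers summed to 36018 CPM, against at most 54.2 CPM in all other libraries. The 16 epithelial genes used for an alternative scaling summed to 26023 and 26758 CPM in cSCC replicates 18 and 19 but to 8483 and 6712 CPM in replicates 20 and 21, against 11729 to 26875 CPM in NS. In replicates 18 and 19 Krt14 alone gave 14100 and 13516 CPM of these sums. Cdh1 was below every NS in both, at 136 and 90.1 CPM against 153 to 374 CPM. So was Epcam, at 149 and 331 CPM against 387 to 656 CPM. Others of the 16, such as Krt5, were not. The TMM factor of replicate 18 was 0.509, against 0.852 to 1.22 in all other libraries, which raises its CPM relative to library size alone. The 5 suprabasal keratinocyte markers summed to a median of 6094 CPM in NS and 3131 CPM in AK, and to 1563, 363, 302 and 339 CPM in cSCC replicates 18 to 21. Among these markers Krt1, Krt10 and Krt77 were lower in every cSCC than in any NS. Lypd3 was not, at 240, 230, 78.5 and 299 CPM against 97.6 to 332 CPM in NS. Calml3 overlapped in replicate 18 only, at 181, 79.5, 58.0 and 12.6 CPM against 174 to 492 CPM in NS. Counts of called members and of called list genes are given with and without replicates 20 and 21, and the part of the heart, lung and epithelial content in the other values was not tested.

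The first question was how far late differentiation was altered in cSCC. A gene was called a DEG when the Benjamini-Hochberg adjusted p of edgeR's quasi-likelihood test was under 0.05 and the fold change was above 1.5 or below 0.67. Of the 39 members tested, 22 were lower in cSCC than in NS and 0 were higher, while 7.65% of all 12097 genes tested were called lower and 11.7% higher. No member was higher at an unadjusted p under 0.05, in DESeq2 or in limma voom with quality weights either, and the same held for cSCC vs. AK. The median log2 fold change of the members was −2.67, against 0.14 over all genes. In 21 members every cSCC lay below every NS, which was the case for 5.73% of all genes. Against AK, 23 of 39 members were lower in cSCC and 0 higher, with 8.34% of 12032 genes called lower and 16% higher, and for 20 of them the groups did not overlap (6.84% of all genes). The remaining member, Tchhl1, did not pass the filter on low counts in any comparison and had at most 5.39 CPM. The comparisons with cSCC share the same 4 cSCC tissues. The heat map of all members shows the block of low values in cSCC and the Lce3 genes that lie outside it.

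**Figure D1:**
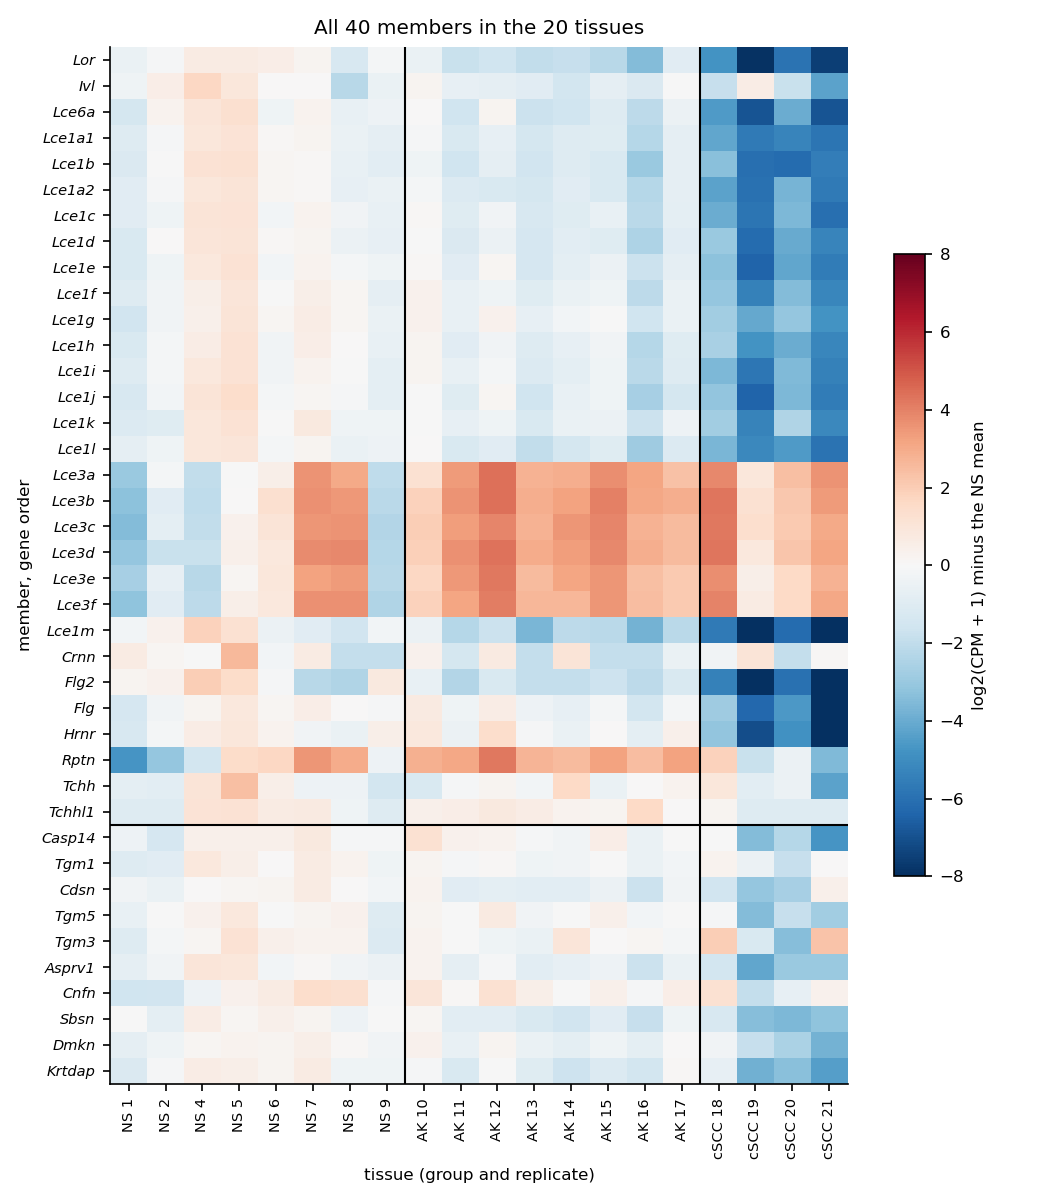
Each row is a member, in gene order with the chromosome 3 cluster above the line, and each column a tissue; colour gives log2(CPM + 1) minus the mean of the 8 NS, and values beyond 8 in size take the end colour. The Lce1 genes, Lor, Flg2, Flg and Hrnr are blue in all 4 cSCC, whereas the 6 Lce3 genes are not, and Lce3 and Rptn vary widely among the NS.

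Among the envelope precursors, loricrin, the main protein of the envelope, was lower in all 4 cSCC and involucrin was not called. The level of Lor was 228 to 881 CPM in NS (median 576), 49.1 to 386 CPM in AK (median 155), and 18.8, 1.32, 7.96 and 1.98 CPM in cSCC replicates 18 to 21. All 4 cSCC were below the lowest AK, and these cSCC levels rest on 27, 3, 7 and 12 counts. The log2 fold change was −6.35 ± 0.78 (SE) for cSCC vs. NS (edgeR adjusted p = 0.000558), −4.65 ± 0.74 for cSCC vs. AK (edgeR adjusted p = 0.00219) and −1.71 ± 0.34 for AK vs. NS (edgeR adjusted p = 0.017). Lor was a DEG in all 3 comparisons.

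Ivl, an early scaffold of the envelope, was at 26.2 to 398 CPM in NS (median 128), at 44.9 to 143 CPM in AK (median 76.6), and at 34.0, 188, 36.4 and 5.62 CPM in the 4 cSCC. The groups overlapped, and cSCC replicate 19 alone was above every AK. The log2 fold changes were −1.23 ± 0.77 for cSCC vs. NS (edgeR adjusted p = 0.278) and −0.23 ± 0.60 for cSCC vs. AK (edgeR adjusted p = 0.814). Without replicate 19, Ivl was called lower in both comparisons (−2.65, edgeR adjusted p = 0.0374, and −1.68, edgeR adjusted p = 0.0321).

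The late cornified envelope genes encode small envelope proteins. All 14 Lce1 genes were called lower in cSCC than in NS and than in AK by edgeR, and no cSCC overlapped with an NS or an AK for any of them. In limma voom with quality weights 13 of 14 were called against NS, without Lce1k (limma adjusted p = 0.0842), and 10 of 14 against AK, without Lce1b, Lce1j, Lce1l and Lce1m (limma adjusted p from 0.0515 to 0.117). The log2 fold changes ran from −3.65 (Lce1g) to −7.71 (Lce1m) against NS, with a median of −4.62, and from −3.19 to −5.38 against AK, with a median of −3.68. Summed over the 14 genes, the Lce1 level was 2092 to 8779 CPM in NS, 849.8 to 4213 CPM in AK, and 345, 71.2, 257 and 69.1 CPM in the 4 cSCC.

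Lce1m, the Lce1 gene nearest to the S100 genes, was at 139 to 1414 CPM in NS (median 342), at 28.8 to 285 CPM in AK (median 88.8), and at 6.95, 0, 4.55 and 0.331 CPM in cSCC. These cSCC levels rest on 10, 0, 4 and 2 counts, so the size of the fold depends on very few reads. The fitted log2 fold changes were −7.71 ± 1.14 against NS (edgeR adjusted p = 0.0015) and −5.38 ± 0.95 against AK (edgeR adjusted p = 0.00277). Lce1a1, at the other end of the Lce1 genes, was at 213 to 901 CPM in NS (median 429), at 85.7 to 399 CPM in AK (median 210), and at 23.6, 7.47, 10.2 and 6.45 CPM in cSCC. It had the smallest adjusted p of the members in both comparisons, with a log2 fold change of −5.31 ± 0.59 against NS (edgeR adjusted p = 0.000323) and −4.15 ± 0.47 against AK (edgeR adjusted p = 0.000856).

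Lce1b and Lce1l moved in the same way. Lce1b was at 68.1 to 349 CPM in NS (median 155), at 18.6 to 119 CPM in AK (median 68.6), and at 13.9, 1.32, 1.14 and 2.32 CPM in cSCC, and its log2 change for cSCC vs. NS was −5.25 ± 0.78 (edgeR adjusted p = 0.0015). Lce1l was at 108 to 355 CPM in NS (median 151), at 23.4 to 179 CPM in AK (median 78.5), and at 13.2, 3.95, 6.83 and 1.98 CPM in cSCC, and its log2 change was −4.95 ± 0.60 (edgeR adjusted p = 0.000497). In each of them the 4 cSCC lay below every other tissue. These cSCC levels rest on 20, 3, 1 and 14 counts for Lce1b and on 19, 9, 6 and 12 counts for Lce1l.

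Lce6a, the single member of its subfamily, was at 44.4 to 290.2 CPM in NS (median 121), at 27.0 to 140.0 CPM in AK (median 49.0), and at 4.17, 0, 6.83 and 0 CPM in cSCC. Counts of Lce6a in cSCC were 6, 0, 6 and 0. The groups did not overlap, and the log2 fold change was −6.16 ± 1.05 for cSCC vs. NS (edgeR adjusted p = 0.00246) and −5.11 ± 0.98 for cSCC vs. AK (edgeR adjusted p = 0.00384). The latter call was lost in limma voom with quality weights (−5.36, limma adjusted p = 0.0645).

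**Figure D2:**
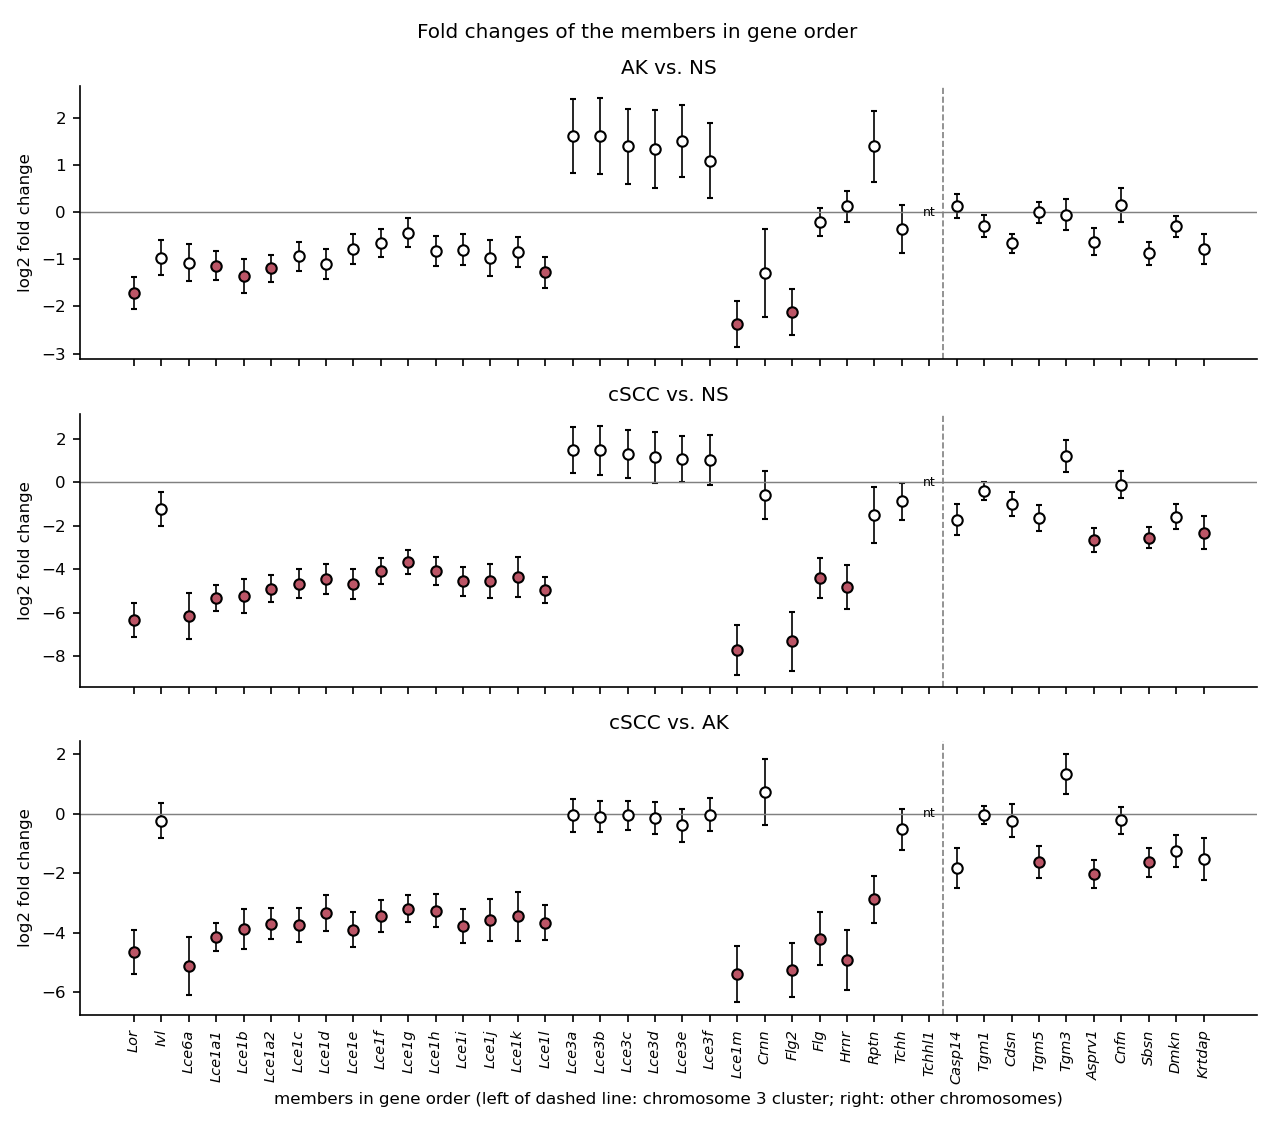
Log2 fold change (y axis) of each member in gene order (x axis) for the 3 comparisons, with bars of 1 standard error; filled points were DEGs, open points were not, and nt marks Tchhl1, which was not tested. In both comparisons of cSCC the Lce1 genes on either side of the Lce3 block lie between −3.19 and −7.71, and the Lce3 genes between −0.39 and 1.51.

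The Lce3 genes, known for their rise in wounded and inflamed skin, were not called lower with their Lce1 neighbours, and 0 of 6 were called in any of the 3 comparisons. No Lce3 gene reached an unadjusted p under 0.05 and none was called in DESeq2, while limma voom with quality weights called all 6 higher in AK than in NS. Their log2 fold changes in edgeR were 1.02 to 1.51 for cSCC vs. NS (adjusted p from 0.34 to 0.563) and −0.39 to −0.03 for cSCC vs. AK (adjusted p from 0.646 to 0.978). The first range was 0.33 to 1.15 without cSCC replicate 18, 1.63 to 2.38 without NS replicate 7 and 1.62 to 1.98 without NS replicate 8. The range against AK was −1.15 to −0.52 without cSCC replicate 18 and changed sign with the epithelial scaling, to 0.36 to 0.83. No Lce3 gene was called in these fits. Reads of Lce3c, Lce3d, Lce3e and Lce3f could be exchanged among them, since 24.1% to 43.0% of the stretches of 100 bases in their transcripts also occur in another gene.

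The level of Lce3c was 3.17 to 548 CPM in NS (median 41.0), 174 to 684 CPM in AK (median 390), and 849 (replicate 18), 113, 191 and 372 CPM in cSCC. The NS ran from a few CPM to the level of AK and overlapped with both lesions, whereas no AK was under 174 CPM. Its log2 fold change was 1.40 ± 0.79 for AK vs. NS (edgeR adjusted p = 0.276) and 1.30 ± 1.09 for cSCC vs. NS (edgeR adjusted p = 0.43).

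The balance of the subfamilies was read as the share of Lce3 among all Lce1 and Lce3 counts. It was 0.351% to 32.4% in NS (median 1.85%), 10.03% to 52.4% in AK (median 39.0%), and 87.1%, 79.0%, 67.9% and 94.5% in cSCC replicates 18 to 21. Every cSCC was above every AK. The 95% Wilson interval of the lowest cSCC share was 64.4% to 71.2% and that of the highest AK share 50.6% to 54.2%, which cover counting error only. These shares are given as a description, and both the loss of Lce1 and the level of Lce3 enter them. AK overlapped with NS, since NS replicates 7 and 8, at 25.4% and 32.4%, were above AK replicates 10 and 17, at 10.03% and 24.6%.

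**Figure D3:**
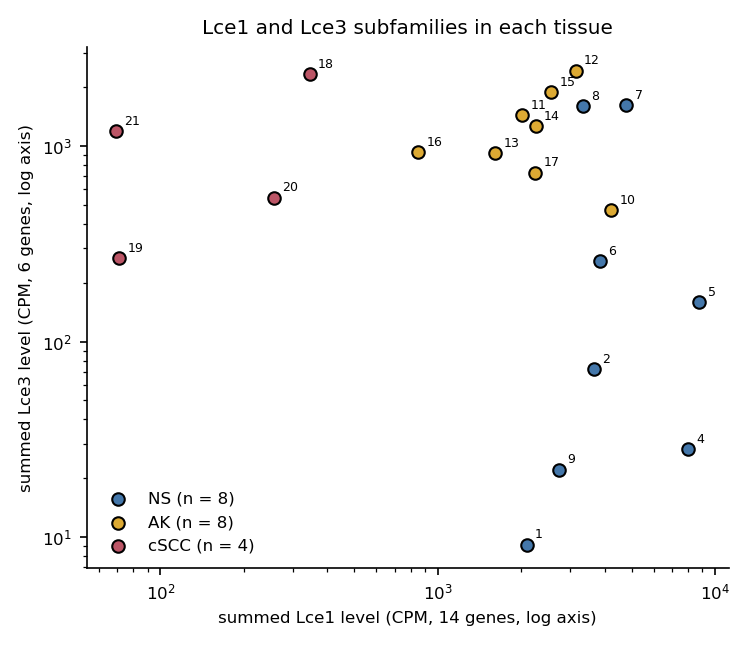
Each point is a tissue, labelled with its replicate number, by the summed level of the 14 Lce1 genes (x axis, CPM, log scale) and of the 6 Lce3 genes (y axis, CPM, log scale). The cSCC lie left of all other tissues, at 69.1 to 345 CPM of Lce1, at Lce3 levels within or near the range of AK, and the NS spread from 9.15 to 1624 CPM of Lce3.

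The fused-type S100 genes divided. Flg, the precursor of the protein that bundles keratin filaments, was at 1279 to 5750 CPM in NS (median 3441), at 1168 to 5398 CPM in AK (median 2767), and at 459.8, 39.99, 137 and 7.28 CPM in cSCC. NS and AK covered nearly the same range, and every cSCC lay below both. The log2 fold change was −0.21 ± 0.30 for AK vs. NS (edgeR adjusted p = 0.691), −4.41 ± 0.92 for cSCC vs. NS (edgeR adjusted p = 0.0068) and −4.19 ± 0.89 for cSCC vs. AK (edgeR adjusted p = 0.00583).

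Flg2, which encodes a filaggrin-like protein, was at 143 to 2966 CPM in NS (median 943), at 152 to 519 CPM in AK (median 223), and at 17.4, 1.76, 11.4 and 0 CPM in cSCC. The cSCC values rest on 25, 4, 10 and 0 counts and lay below all others. The log2 fold change was −2.12 ± 0.49 for AK vs. NS (edgeR adjusted p = 0.0238), −7.32 ± 1.36 for cSCC vs. NS (edgeR adjusted p = 0.00387) and −5.25 ± 0.90 for cSCC vs. AK (edgeR adjusted p = 0.00255).

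Hrnr, encoding hornerin of the same granules, was at 635 to 2930 CPM in NS (median 1638), at 924 to 4187 CPM in AK (median 1540), and at 178, 10.5, 52.3 and 1.65 CPM in cSCC. Like Flg, it separated cSCC alone. Its log2 fold change was −4.80 ± 1.01 for cSCC vs. NS (edgeR adjusted p = 0.00683), −4.92 ± 1.01 for cSCC vs. AK (edgeR adjusted p = 0.00498) and 0.13 ± 0.33 for AK vs. NS (edgeR adjusted p = 0.84). A gene on the opposite strand, Gm37245, overlaps Hrnr, Rptn and Tchh, and reads of such pairs cannot be told apart if strand was not used in counting.

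Rptn, encoding repetin, had another pattern. It was at 10.9 to 3599 CPM in NS (median 550), at 1738 to 5676 CPM in AK (median 2417), and at 1100, 89.2, 218 and 26.0 CPM in cSCC. All 4 cSCC were below every AK, and the NS overlapped with both. Rptn was a DEG for cSCC vs. AK, with a log2 fold change of −2.88 ± 0.79 (edgeR adjusted p = 0.0181), but not for AK vs. NS (1.40 ± 0.76, edgeR adjusted p = 0.265) or cSCC vs. NS (−1.50 ± 1.30, edgeR adjusted p = 0.446). Tchh, the trichohyalin gene of the hair follicle, and Crnn, the cornulin gene, were not called in any comparison.

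**Figure D4:**
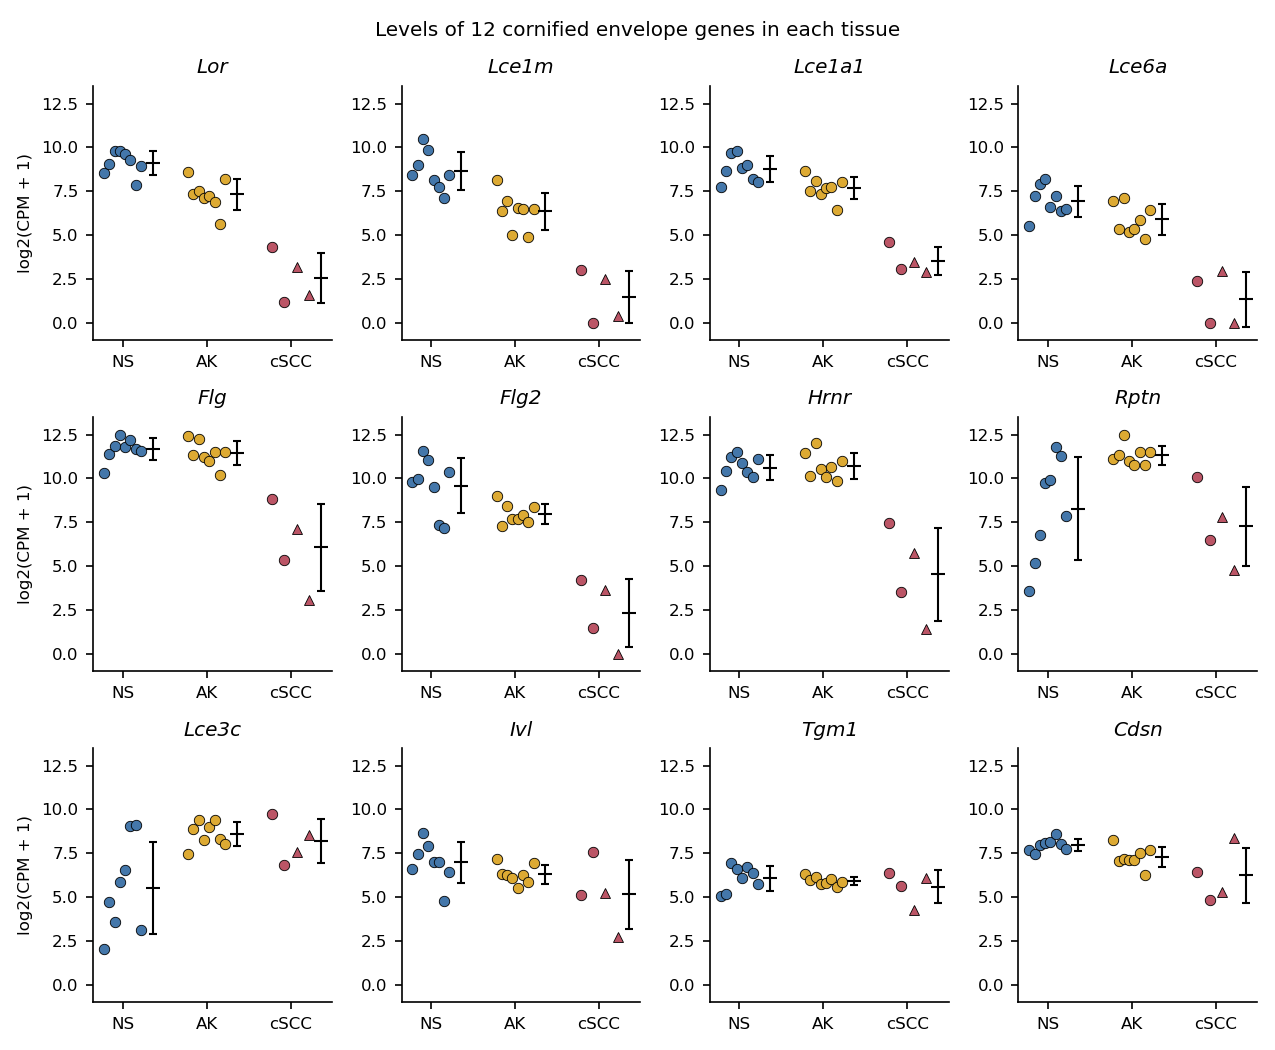
Levels (y axis, log2(CPM + 1)) of 12 members in each NS, AK and cSCC tissue (points; triangles are cSCC replicates 20 and 21), with the mean and 1 SD beside each group (n = 8, 8 and 4). Lor, Lce1m, Lce1a1, Lce6a, Flg, Flg2 and Hrnr are lower in all 4 cSCC than in any other tissue, and Ivl, Tgm1, Cdsn and Lce3c overlap.

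The enzymes that join envelope proteins moved less. Tgm1, the membrane-bound transglutaminase of the epidermis, was at 32.0 to 123 CPM in NS (median 74.0), at 46.7 to 78.1 CPM in AK (median 60.2), and at 81.3, 48.3, 18.2 and 67.8 CPM in cSCC. The groups overlapped, and the log2 fold change was −0.39 ± 0.42 for cSCC vs. NS (edgeR adjusted p = 0.545), a sign that turned with the epithelial scaling (0.08). Tgm3, another epidermal transglutaminase, was at 4.04 to 22.5 CPM in NS (median 11.3), at 6.31 to 19.9 CPM in AK (median 9.64), and at 40.3, 3.52, 0 and 50.1 CPM in cSCC. Replicates 18 and 21 were above every other tissue. Replicates 19 and 20 were below every NS and AK, but on 8 and 0 counts, and 3 counts correspond to 3.41 CPM in replicate 20. Tgm3 was not called in edgeR (cSCC vs. AK 1.33 ± 0.68, adjusted p = 0.168). It was called higher in cSCC than in AK with the epithelial scaling (2.36, edgeR adjusted p = 0.0317) and without cSCC replicate 20 (1.70, edgeR adjusted p = 0.034). Tgm5, of the same enzyme family, was lower in cSCC than in AK (−1.63 ± 0.53, edgeR adjusted p = 0.0371) and missed the threshold against NS (−1.64 ± 0.59, edgeR adjusted p = 0.0664), where DESeq2 called it (adjusted p = 0.0265).

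Of the proteases, Asprv1, the aspartic protease that processes filaggrin, fell by 2.67 ± 0.55 on the log2 scale for cSCC vs. NS (edgeR adjusted p = 0.0065) and by 2.02 ± 0.47 for cSCC vs. AK (edgeR adjusted p = 0.00927). Casp14, the caspase of cornifying cells, was not called by edgeR (−1.71 ± 0.70 for cSCC vs. NS, edgeR adjusted p = 0.0986). It was called lower in both comparisons of cSCC by DESeq2 (against NS −1.69, adjusted p = 0.0372), by limma voom (against NS −2.48, adjusted p = 0.00942), with library size alone and with 1 fit of all tissues. Its 4 cSCC levels ran from 16.7 to 447 CPM. Cdsn, which encodes corneodesmosin of the junctions between corneocytes, was at 175 to 389 CPM in NS (median 257), at 76.1 to 301 CPM in AK (median 142), and at 85.4, 28.1, 38.7 and 333 CPM in cSCC. Replicate 21, the library with the heart markers, was above every AK and the others were within or below the AK range. Limma voom called Cdsn lower against NS with all tissues (−2.37, limma adjusted p = 0.00217). Without replicate 21, Cdsn was called lower by edgeR against NS (−2.30, edgeR adjusted p = 0.00197) and against AK (−1.68, edgeR adjusted p = 0.0131).

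Among the secreted proteins, Krtdap and Dmkn had the highest levels per length of all members in NS. Krtdap had a mean level of 22126 CPM per kb in NS and Dmkn 2061 CPM per kb, against 335 CPM per kb for Lor and 186 for Flg. Sbsn, which encodes suprabasin, was lower in cSCC than in NS (−2.54 ± 0.50, edgeR adjusted p = 0.00518) and than in AK (−1.63 ± 0.49, edgeR adjusted p = 0.0255). Krtdap, encoding a keratinocyte differentiation protein, was lower against NS near the threshold (−2.32 ± 0.77, edgeR adjusted p = 0.0479) and not called against AK (−1.52 ± 0.69, edgeR adjusted p = 0.117). Its levels in cSCC were 8787, 982, 1361 and 653 CPM, against 6273 to 22287 CPM in NS. The first of these overlapped with NS, and the other 3 lay below every NS and AK. That overlap rests on the low TMM factor of cSCC replicate 18, 0.509. Its 12651 of 2830894 counts were a smaller share than the 35640 of 4672951 counts in NS replicate 1, the lowest NS. Against AK, Krtdap was called by DESeq2 (adjusted p = 0.0422) and limma voom (adjusted p = 0.0163). Dmkn, the dermokine gene, was not called by edgeR in any comparison, but DESeq2, limma voom and edgeR with library size alone called it lower in both comparisons of cSCC (against AK −1.24 with DESeq2, adjusted p = 0.037, and −1.47 with limma, adjusted p = 0.0164), as did the epithelial scaling against NS. Cnfn, the cornifelin gene, was not called by edgeR in any comparison.

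The second question was whether AK already differed from NS. Of 39 members tested, 7 were lower in AK and 0 higher, against 2.38% of 11677 genes called lower and 2.26% higher, and no member was higher at an unadjusted p under 0.05 or in DESeq2. These 7 were Lor, Flg2, Lce1a1, Lce1a2, Lce1b, Lce1l and Lce1m. The median log2 fold change over the members was −0.66, against −0.04 over all genes, and the groups overlapped for every member (0.128% of all genes were wholly lower in AK). All 14 Lce1 genes had a negative log2 fold change, from −0.43 to −2.37 for Lce1m (−2.37 ± 0.49, edgeR adjusted p = 0.019), and 5 of them were DEGs. All 6 Lce3 genes had a positive one, from 1.10 to 1.62 (edgeR adjusted p from 0.207 to 0.413), and none was a DEG.

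The AK calls depended on single libraries. Lor and Lce1m were called in all 16 fits that left out 1 tissue, whereas Flg2 was called in 14 of them, Lce1a2 in 10, Lce1b in 8, Lce1l in 7 and Lce1a1 in 4. The number of members called was 2 without NS replicate 4 or AK replicate 13, 3 without NS replicate 5, AK replicate 15 or AK replicate 16, 4 without AK replicate 11, 12 or 14, and 11 without AK replicate 10. It was 0 when all 20 tissues shared 1 fit, and 20 with limma voom with quality weights, of which 7 were higher, namely the 6 Lce3 genes (log2 fold change 3.23 to 3.81, limma adjusted p from 0.00806 to 0.0137) and Rptn.

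The NS themselves were not alike, as a look at Lce3c, Rptn, Lce1m and Flg2 chosen after their values were seen shows. NS replicates 7 and 8 had the highest levels of Lce3c, at 537 and 548 CPM, where the other 6 NS had 3.17 to 94.1 CPM. The same tissues had the highest Rptn, at 3599 and 2441 CPM against 10.9 to 978 CPM, and the lowest Lce1m, at 211 and 139 CPM against 284 to 1414 CPM. They also had the lowest Flg2, at 164 and 143 CPM against 738 to 2966 CPM. In all 4 genes NS replicates 7 and 8 were thus the nearest of the NS to AK, while their Flg levels, 4620 and 3289 CPM, were within the range of the other NS. For Lor, replicate 8 was the lowest NS, at 228 CPM, but replicate 7, at 631 CPM, lay among the other NS. The labels do not tell which NS came from irradiated mice.

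The lower levels in cSCC were also seen without the libraries that hold heart and lung RNA. Without cSCC replicates 20 and 21, 22 members were lower than in NS, of which 21 were among the 22 called with all tissues, and Krtdap was replaced by Cdsn. Against AK, 19 were lower, and Asprv1, Rptn, Sbsn and Tgm5 were no longer called. With the epithelial scaling, 23 members were lower in cSCC than in NS and 20 were lower than in AK, where Asprv1, Sbsn and Tgm5 were lost (edgeR adjusted p = 0.0501, 0.0743 and 0.105). Rptn was also lost against AK when all 20 tissues shared 1 fit (edgeR adjusted p = 0.0611). With both changes together, a choice made after the data were seen, 20 were lower in each comparison, and all 14 Lce1 genes, Lce6a, Lor, Flg, Flg2 and Hrnr were among them. Over the 12 fits that each left out 1 tissue, 21 of the 22 members lower than in NS were called in every fit, and Krtdap was called only without cSCC replicate 18. Of the 23 lower than in AK, 21 were called in every fit, Sbsn was lost without cSCC replicate 19, 20 or 21, and Tgm5 was lost without any 1 of these or without AK replicate 10, 11, 12, 15 or 17. Lor illustrates the levels behind these calls, at 18.8 and 1.32 CPM in cSCC replicates 18 and 19. In these the epithelial list summed to the level of NS, but Cdh1 and Epcam of that list were below every NS. The part of epithelial content in the Lor levels was not tested.

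**Figure D5:**
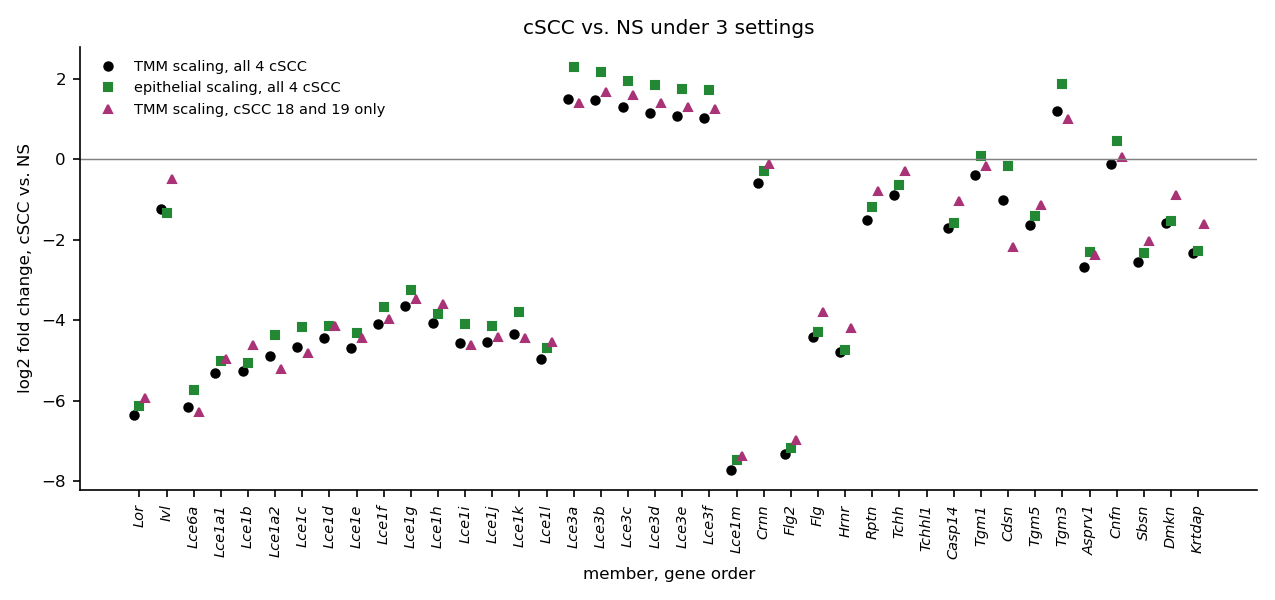
Log2 fold change for cSCC vs. NS (y axis) of each member in gene order (x axis) with TMM scaling and all 4 cSCC (circles), with the epithelial scaling (squares) and with cSCC replicates 18 and 19 alone (triangles). For Lor, Lce6a, the Lce1 genes, Flg2, Flg and Hrnr the symbols lie close together far below 0, while Cdsn is nearer to 0 with the epithelial scaling and farther from it with replicates 18 and 19 alone.

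Other genes of cornification were read from lists made by function. Both plakins that scaffold the envelope were lower in cSCC than in NS, Ppl (−2.49 ± 0.38, edgeR adjusted p = 0.00167) and Evpl (−1.58 ± 0.45, edgeR adjusted p = 0.0261). All 4 suprabasal keratins were lower, led by Krt77, which fell from a mean of 832 ± 729 CPM (SD, n = 8) in NS to 1.74 ± 0.967 CPM (SD, n = 4) in cSCC. Of the 14 small proline-rich genes tested, alternative envelope precursors, Sprr4 was lower (−5.77 ± 1.47, edgeR adjusted p = 0.0161) and the pseudogene Sprr2j-ps higher (3.08 ± 0.98, edgeR adjusted p = 0.0406), and 12 were not called.

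Of 12 genes of filaggrin processing and desquamation, 4 were lower in cSCC than in NS (Spink5, Cst6, Prss8 and Klk7) and 1, the deiminase gene Padi3, was higher. Cst6, the cystatin that restrains envelope proteases, fell by 4.83 ± 1.08 on the log2 scale (edgeR adjusted p = 0.00837) and was also lower in AK than in NS (−1.94 ± 0.41, edgeR adjusted p = 0.019). Of 14 genes of the corneocyte lipid envelope, 7 were lower and 0 higher, among them the lipid transporter Abca12 (−3.03 ± 0.54, edgeR adjusted p = 0.00321) and the lipoxygenase Aloxe3 (−2.98 ± 0.60, edgeR adjusted p = 0.00553). Of 16 transcription factors of late differentiation, 7 were lower and 0 higher, among them Grhl1 (−2.51 ± 0.37, edgeR adjusted p = 0.0015), Prdm1 (−1.79 ± 0.27, edgeR adjusted p = 0.00167) and Rora (−2.82 ± 0.45, edgeR adjusted p = 0.00171). Over all 6 lists, 25 of 62 genes tested were lower and 2 higher in cSCC than in NS, against 7.65% and 11.7% of all genes. Against AK, 22 of 60 were lower and 3 higher, against 8.34% and 16% of all genes. In AK, 3 of 61 were lower than in NS and 0 higher, against 2.38% and 2.26% of all genes. Without cSCC replicates 20 and 21, the calls for cSCC vs. NS went from 27 to 16, with 0 higher and 16 lower. Those for cSCC vs. AK went from 25 to 19, with 3 higher and 16 lower. Padi3 (3.78, edgeR adjusted p = 0.069) and Sprr2j-ps (3.23, edgeR adjusted p = 0.0828) were then no longer called against NS, and neither were Evpl, Krt1, Krt2, Sprr4 and Klk7.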

How the data were processed

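The tissues were 8 NS, 8 AK and 4 cSCC, grouped by their labels. The authors deposited raw gene counts, which were not normalized. The paper's methods name Trimmomatic, HISAT2, StringTie and GRCm38, whereas the submitters' processing notes list Trimmomatic 0.36, HISAT2 2.0.5 and featureCounts 1.5.2 with the builds hg19 and mm9. The annotation and the strand setting are not given in the sources used here, so counts of near-identical and overlapping genes are uncertain. All deposited columns matched a labelled sample. No pair of samples within a group was a repeat of 1 library, since the chi-square of their counts was at least 11.3 times its degrees of freedom in all 62 pairs.

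The members and lists were chosen with earlier results of these data known. From the counts, edgeR 4.0.16 (R 4.3.3) was used with filterByExpr, TMM factors and the quasi-likelihood test on the samples of each pair of groups, with Benjamini-Hochberg adjustment over all genes tested. The fold change limits were those of the paper, but a count test took the place of its test on each gene. A standard error is the log2 fold change divided by the square root of F. The test was checked on simulated counts in which genes were made 4 times higher or lower. For AK vs. NS it found 93.7% of the 190 changed genes with 2 false calls. It found 46.4% of 194 with 4 false calls for cSCC vs. NS, and 57.1% of 196 with 1 false call for cSCC vs. AK. P-values measure the spread between these tissues. Wilson intervals are at 95%.

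Values by sample were given for Lor, Flg, Ivl and Tgm1 whatever they showed and for the 5 DEGs with the largest fold change of each comparison. Lce3c, Rptn, Cdsn, Tgm3 and Krtdap were added once their values had been seen. List genes were named only among the DEGs with the smallest adjusted p. Alternatives were DESeq2 1.42.0, limma 3.58.1 voom with quality weights, library size alone, scaling to 16 epithelial genes, other count filters, no adjustment, no fold change limit, 1 fit of all tissues, and leaving out tissues. Positions and transcript lengths are from GENCODE M21 on GRCm38 and promoters from RefSeq on GRCm38.p6. Tables were made in Python 3.11.15 (pandas 2.3.3, numpy 2.4.6, scipy 1.17.1). Protein sequences were not used here.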

Additional observations from a re-analysis of the deposited data

Results flagged for a closer look

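Rptn in AK replicate 12 stood apart, at 5676 CPM where the other 7 AK had 1738 to 2933 CPM. The gap to the next sample was 0.558 of the range of the 8 AK, above Dixon's limit for 8 samples. This replicate had the smallest total of the AK, 867219 counts, and the highest Hrnr of the AK, 4187 CPM. Over 15 members, 45 groups of samples were examined in this way, 1 stood out, and chance gives about 1 in 20.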

How the results depend on the processing

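No paired analysis was possible because the groups share no replicate numbers and the labels do not give the mouse. The members called for AK vs. NS (7) became 21 without adjustment, 12 with DESeq2, 11 with library size alone, 11 with at least 10 counts in every sample, 20 with limma voom and 0 with 1 fit of all tissues, and ranged from 2 to 11 when a tissue was left out. For cSCC vs. NS (22) and cSCC vs. AK (23) the count filter gave 9 and 9, because most Lce1 genes, Lor and Flg2 have fewer counts in cSCC and were not tested, and leaving out a tissue gave 21 to 25 and 22 to 26. Genes of the 6 pathway lists called for AK vs. NS (3) became 14 without adjustment, 8 with DESeq2, 18 with limma voom and 0 with 1 fit of all tissues (2 to 8 when a tissue was left out, with 5 without NS replicate 7, 8 without NS replicate 8 and 7 without AK replicate 10). For cSCC vs. NS (27) they became 16 without cSCC replicates 20 and 21 and 11 when the epithelial scaling was added, and ranged from 18 to 35. For cSCC vs. AK (25) they became 38 without adjustment and 12 with epithelial scaling without replicates 20 and 21, and ranged from 21 to 39, the latter without cSCC replicate 18. The combined setting was chosen after the data were seen.

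Changes of sign among the named members all concerned log2 fold changes that edgeR did not call with all tissues. For cSCC vs. AK, Ivl turned to 0.52 without cSCC replicates 20 and 21 (0.24 with the epithelial scaling too), Tgm1 to 0.68 with the epithelial scaling, 0.11 with the count filter, 0.15 without those replicates and 0.0 with both, Lce3c to 0.63, 0.05, 0.22 and 0.16 under these same settings, and Cdsn to 1.03 with the epithelial scaling and 0.03 with the count filter. Tgm1 turned to 0.08 for cSCC vs. NS with the epithelial scaling. With limma voom, Hrnr turned to −0.08 for AK vs. NS, and Tgm3 to 0.04 for AK vs. NS, −0.87 for cSCC vs. NS and −0.94 for cSCC vs. AK. When a tissue was left out, the values ran from −1.68 to 0.08 for Ivl, −0.37 to 0.23 for Tgm1, −0.87 to 0.24 for Lce3c and −1.68 to 0.09 for Cdsn (cSCC vs. AK), and from −0.15 to 0.28 for Hrnr and −0.24 to 0.2 for Tgm3 (AK vs. NS). Ivl and Cdsn were called lower in cSCC without cSCC replicate 19 and without replicate 21, respectively. The cause was not tested.

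The scaling moved all genes. Of all DEGs for cSCC vs. NS, 39.6% were lower with TMM, 68.1% with library size alone and 21.5% with the epithelial scaling, and the median log2 fold change of all genes was 0.14, −0.17 and 0.53. For cSCC vs. AK these shares were 34.2%, 57.0% and 8.34% and the medians 0.17, −0.09 and 0.86. For AK vs. NS they were 51.3%, 73.2% and 61.0%, with medians of −0.04, −0.13 and −0.12. Depth limits the cSCC levels of several members, among them Lce6a, Lce1m, Lce1b, Lce1k, Lce1l and Flg2, which rest on at most 25 counts in each cSCC.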
